A study of Mus musculus with 47 samples.

Results

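The genes described here act when a spermatozoon meets an egg: 32 of the 23416 genes counted in every library. They were taken from a list of acrosome, zona binding, fusion and oocyte activation genes, and each had to be present by its symbol in all 10 RNA count tables of the series. By role, 10 encode contents of the acrosome, 4 act in forming it, 9 act in passing the cumulus and the zona pellucida, 8 are proteins of gamete fusion or of the sperm surface, and 1, Plcz1, activates the oocyte. The acrosome is a secretory vesicle that is assembled from the Golgi of the round spermatid and spread over the sperm nucleus. Its exocytosis releases enzymes and exposes membrane proteins that take part in binding the zona pellucida, the coat of the egg, and in fusing with the egg membrane. Transcription has ceased in mature spermatozoa, so their mRNAs are those left from the spermatid stages.

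The series asks whether the loss of SCML2, an X-linked Polycomb protein of the male germline, alters RNA in the sons and grandsons of the affected male. Scml2-KO males (-/y, C57BL/6), which are infertile, and their wild-type littermates fathered F1 males by intracytoplasmic sperm injection (ICSI) of cryopreserved testicular spermatozoa into BDF1 oocytes. The F1 sons of both kinds of father, Ctrl-F1 and KO-F1 (background strain labelled BDF2), inherited a wild-type Scml2 from the oocyte. KO-F2 males (labelled BDF3) came from mating KO-F1 males with C57BL/6 females, and were compared with Ctrl-F1, since the series holds no Ctrl-F2 group. All males were 8 to 12 weeks old, and each group had 2 biological replicates: liver of Ctrl-F1 and KO-F1, and motile cauda epididymal spermatozoa, separated by swim-up, of Ctrl-F1, KO-F1 and KO-F2. The ICSI origin, the strain and, per the labels, the sequencing run that is named for KO-F2 only all separate KO-F2 from the F1 groups, and their effects cannot be told apart from that of the generation.

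Libraries held 1503733 to 2778171 counts in F1 spermatozoa, 8384266 and 11462105 in KO-F2 spermatozoa and 11339729 to 14278900 in liver. Sperm cDNA was amplified by PCR without molecular identifiers, so counts are not independent molecules and detection limits (3 counts, or 0.893 to 2.52 normalized CPM, the count scaled to library size and TMM factor, in F1 sperm libraries and 0.265 and 0.364 in KO-F2) cover counting error only. Rn45s, the ribosomal RNA precursor, took 20.6% and 28.7% of the counts in the Ctrl-F1 sperm libraries, 15.7% and 28.6% in KO-F1 and 13.3% and 3.52% in KO-F2, with KO-F2 replicate 2 lowest. Scml2 was barely detected, with 0 and 18 counts for the Ctrl-F1, 0 and 4 for the KO-F1 and 6 and 9 for the KO-F2 sperm libraries, and 0 in every liver library. A list of 32 sperm marker genes outside the 32 members (protamines, transition proteins, tail and sheath proteins) took 15.2% and 13.3% of all counts of the Ctrl-F1 libraries, 6.56% and 5.09% in KO-F1 and 17.6% and 17.5% in KO-F2 spermatozoa. Of 28 epididymal epithelium markers, 6 or 7 were at 0 in each F1 library and at most 1 in KO-F2, and the list took 2.50% and 0.885% of all counts in the Ctrl-F1 libraries, 2.34% and 1.93% in KO-F1 and 0.525% and 0.266% in KO-F2. Crisp1 had the most counts of this list in every sperm library, 8193 to 44302 among the F1 libraries and 32737 and 10567 among the deeper KO-F2 libraries. Lcn5, which marks principal cells of that epithelium, had 0 or 1 count in the F1 libraries and 8 and 21 in KO-F2. As the KO-F2 libraries are deeper, these counts do not show a higher level of Lcn5 in KO-F2. The share of the whole list was lower in both KO-F2 libraries than in any F1 library. Of 20 leukocyte markers, 3 to 5 were at 0 in each F1 library and 0 in KO-F2, and the list took 0.0419% and 0.101% of Ctrl-F1, 0.0490% and 0.0673% of KO-F1 and 0.462% and 0.606% of KO-F2 counts. In spermatozoa the 10 hepatocyte markers took at most 0.0288% of the counts, and in liver they took 14.2% to 15.6%.

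In spermatozoa, members spanned a wide range of levels. Levels of different genes are given as normalized CPM per kilobase of annotated exon, the mean of the 2 libraries of a group, and their order differed between groups. Acrbp, which encodes the binding protein of the acrosin zymogen, was highest in Ctrl-F1 (93.9), followed by Spaca4 (72.7), Izumo2 (43.3) and Cd9 (40.6). In KO-F1, Acrbp (43.0) was followed by Cd9 (39.8), Acrv1 (26.2) and Izumo4 (23.4). In KO-F2, Izumo2 (80.4) and Acrbp (79.8) stood nearly level, ahead of Adam3 (42.3) and Izumo4 (38.3). Acr, the gene of the acrosomal protease acrosin, stood at 31.2, 8.48 and 30.6 in Ctrl-F1, KO-F1 and KO-F2, and Izumo1, whose protein binds the egg receptor JUNO, at 5.62, 2.81 and 3.06. Zan (0.584, 0.116 and 0.251) and Cd46 (0.332, 0 and 0.136) were among the lowest 3 in each group. The lengths are those of the merged exons of the curated RefSeq transcripts of GRCm38.p6, which may not be those the authors counted on. No member shared exon bases with another gene in that curated set, while 9 of the 32 did in the GENCODE vM21 basic set. Among these were Adam1a, which shares exon bases with Mapkapk5 and, on the opposite strand, Tmem116, and Acrbp, Ly6k and Adam3, which have an antisense partner. The annotation and strand setting of the authors' counting are not given in the sources used here, so the counts of those 9 members may include reads of their neighbours.

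Within gene families, levels differed between members. Of the fertilin and cyritestin genes of the ADAM family (transmembrane proteins of the sperm surface), Adam3 was highest in each group, with 31.997, 9.34 and 42.3 CPM per kilobase in Ctrl-F1, KO-F1 and KO-F2. Adam2 had 8.87, 1.64 and 11.5, Adam1a 9.88, 3.04 and 7.84 and Adam1b 9.48, 1.59 and 3.24, so that Adam1a led these 3 in both F1 groups and Adam2 in KO-F2. Adam1a (chr5:121518604-121521695) and Adam1b (chr5:121500096-121503435) are single-exon genes on the minus strand. Only uniquely aligned reads were counted, so a read that fits both was dropped. Of the IZUMO family, Izumo2 (chr7:44708698-44719848) and Izumo4 exceeded Izumo3 (14.98, 5.00 and 24.2) and Izumo1 (chr7:45621811-45627242) in each group. Of the lysozyme-like genes, which encode acrosomal proteins related to lysozyme C, Lyzl4 had 19.8, 5.67 and 13.4, Spaca3 11.7, 2.23 and 17.3 and Lyzl6 13.6, 2.12 and 12.3, with Lyzl4 highest in the F1 groups and Spaca3 in KO-F2. These orders were not tested.

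**Figure D1:**
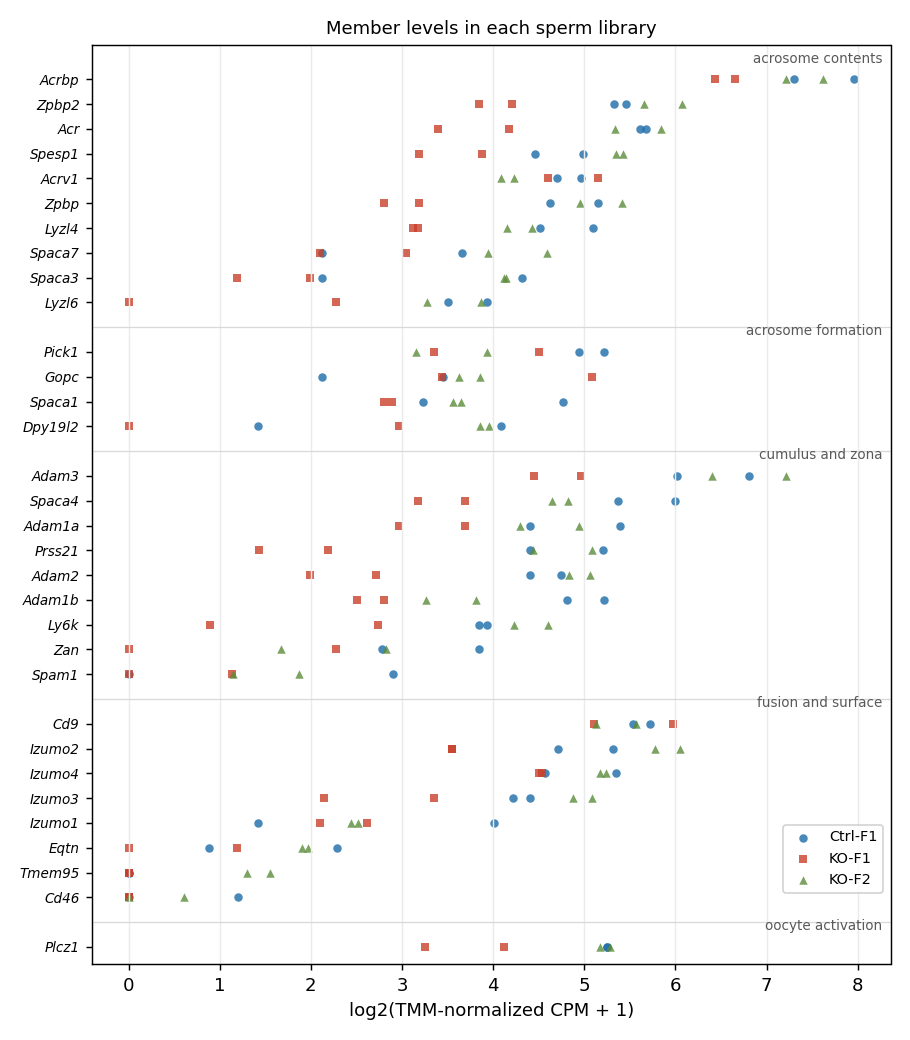
Levels of the 32 members in each sperm library as log2 of normalized CPM plus 1, grouped by role and sorted by mean level within a role. Each point is 1 library (circles Ctrl-F1, squares KO-F1, triangles KO-F2). Both KO-F1 points lie to the left of both Ctrl-F1 points for 21 of the 27 members tested between these groups (all genes 25.4% below and 28.6% above). The levels are TMM-normalized, and under sperm marker scaling 16 of the 27 fitted higher in KO-F1.

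Start-site sequence was examined because most members share their expression in spermatids. RefSeq windows of 250 bases before to 50 after the start (GRCm38.p6) were at hand for 25 of the 32 members, and none was found for Acr, Adam2, Adam3, Eqtn, Izumo4, Ly6k and Plcz1. TGACG, the core of the cAMP response element (CRE) that CREM and other factors of the CREB family bind, occurred on either strand in 13 of the 25 members (52%) and in 23.0% of all 27025 genes with a window. The full palindrome TGACGTCA, which contains TGACG on both strands, occurred in 1 of the 25 members, Izumo1, and in 2.03% of all genes. The TATA box letters TATAAA occurred on either strand in 1 member, Spaca7, and in 15.7% of all genes. In Izumo1 the palindrome spans positions -96 to -89 from the start, and in Acrbp the core begins at position -18. Spaca1 holds 2 copies within 120 bases before its start, and Spaca3 holds 1. Lyzl4 has a match at positions -111 to -107 from another of its starts. The core lies at or after the start in Pick1, Spesp1, Dpy19l2 and Cd46. Pick1 and Gopc, which liver also expresses, are among the 13 members. Acrbp, Izumo1, Spaca1 and Spaca3 are the 4 of the 25 members with a match in the 120 bases before their most upstream start. The share of all genes with a match there was not computed. Those 120 bases are shown on the strand of the gene, with TGACG, or its reverse complement, in capitals. They are Acrbp chr6:125049807-125049926 (plus strand), Izumo1 chr7:45621691-45621810 (plus), Spaca1 chr4:34050068-34050187 (minus) and Spaca3 chr11:80858243-80858362 (plus).
Acrbp: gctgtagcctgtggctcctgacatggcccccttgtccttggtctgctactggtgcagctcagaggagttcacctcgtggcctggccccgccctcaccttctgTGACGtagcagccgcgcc
Izumo1: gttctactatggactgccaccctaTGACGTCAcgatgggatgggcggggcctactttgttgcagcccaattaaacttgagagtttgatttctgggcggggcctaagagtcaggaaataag
Spaca1: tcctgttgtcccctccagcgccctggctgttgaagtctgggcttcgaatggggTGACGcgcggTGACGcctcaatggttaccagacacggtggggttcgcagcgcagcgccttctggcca
Spaca3: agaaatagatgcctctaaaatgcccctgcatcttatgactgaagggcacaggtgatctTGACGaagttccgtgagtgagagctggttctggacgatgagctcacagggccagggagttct
Such matches are a description of the letters and not of bound sites.

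In KO-F1 spermatozoa, transcripts of the members took a smaller share of the library than in Ctrl-F1 spermatozoa: 0.0420% and 0.0506% of the counts against 0.107% and 0.0632%. After TMM normalization, 27 members passed the filter on low counts and 25 of them fitted lower in KO-F1 (all genes 49.5% lower and 50.5% higher), against 11 of 27 when libraries were scaled to sperm markers. The median log2 difference was -1.59 for the members, where 10785 tested genes gave 0.019. Both KO-F1 libraries lay below both Ctrl-F1 libraries for 21 of the 27 members and above them for 0, while over all genes 25.4% lay below and 28.6% above. The 21 included 20 with a fitted difference of at least 2-fold (all genes 19.5%). The low-count filter favours lower values for members that passed it only through their Ctrl-F1 counts, such as Prss21, Zan and Lyzl6. A call required a 2-fold difference or more and, by edgeR's quasi-likelihood test, an adjusted p (Benjamini-Hochberg) below 0.01. No member was called, and neither was any other gene (background 0%), and the smallest adjusted p was 0.140 among the members and 0.140 over all genes. At an unadjusted p under 0.05, 13 members were lower and 0 higher (all genes 10.6% lower, 8.88% higher). DESeq2 called 390 genes (5.22% of those with an adjusted p lower, 2.46% higher) but 0 of the members, of which 15 were left without an adjusted p by its filter on low counts. Among the 12 with one, the smallest was 0.0224, for Spaca4.

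The direction of these differences depends on the yardstick. The 31 sperm markers tested all had a negative log2 fold change too, with a median of -1.80. DESeq2 called 24 genes of this list lower (all genes 5.22%). The study itself reports Prm1, Prm2, Prm3 and Tnp2, all on the list, as lower in KO-F1 spermatozoa. Prm2, Smcp and Odf1 had the highest counts of the list in every sperm library and weigh most in its sum. Scaling to that sum is thus not independent of the difference between the groups. When libraries were scaled to the summed counts of the sperm markers in place of TMM, the median over all genes shifted by 1.74, the median of the members changed sign to 0.12, and 16 of the 27 were higher in KO-F1. Relative to the median of all genes, the members stood at -1.61 under TMM and at -1.64 under this scaling. A change of scaling shifts all genes by nearly the same amount, so the closeness of these 2 values was fixed in advance. In counts per 100 sperm marker counts, the 28 members that did not reach 10 counts in every liver library summed to 0.621 and 0.411 in the Ctrl-F1 libraries, to 0.503 and 0.688 in KO-F1 and to 0.545 and 0.417 in KO-F2. These values overlap between all 3 groups. In bulk libraries, fewer spermatozoa in the sample and less RNA of these genes per spermatozoon cannot be told apart. Of the other cells' lists, 14 of 14 leukocyte markers were lower in KO-F1 (median -0.65) and 10 of 19 epididymal markers higher (0.069), and their part in the members' values was not tested.

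**Figure D2:**
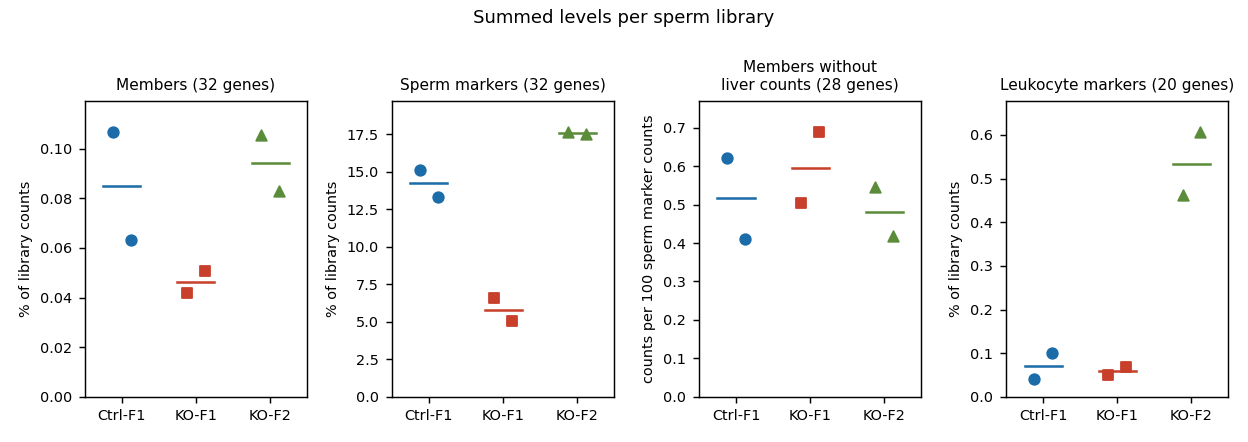
Summed counts in each sperm library: the share of the library taken by the 32 members, by the 32 sperm markers and by the 20 leukocyte markers, and the counts of the 28 members without liver counts (fewer than 10 in at least 1 liver library) per 100 sperm marker counts. Points are libraries and horizontal lines are means of 2. Members and sperm markers are both lowest in KO-F1, whereas per 100 sperm marker counts the KO-F1 values of 0.503 and 0.688 lie beside 0.621 and 0.411 in Ctrl-F1.

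Among the 10 genes for acrosome contents, 9 were tested, and 8 fitted lower in KO-F1 (median -1.43) under TMM but 4 under sperm marker scaling (0.33). Acrbp stood at 248 and 156 normalized CPM in the Ctrl-F1 libraries and at 85.4 and 99.8 in the KO-F1 libraries, a log2 fold change of -1.16 (SE 0.43, adjusted p = 0.203). Acr stood at 50.0 and 47.9 in Ctrl-F1 against 9.53 and 17.1 in KO-F1, a log2 fold change of -1.90 (SE 0.61, adjusted p = 0.163). Both KO-F1 libraries were low for both genes, and the groups did not overlap. Zpbp and Zpbp2 encode zona pellucida binding proteins of the acrosomal matrix. Zpbp had 23.7 and 34.5 CPM in Ctrl-F1 against 5.95 and 8.10 in KO-F1, and Zpbp2 had 39.2 and 42.9 against 13.4 and 17.5, so that the groups lay apart for both, with log2 fold changes of -2.05 and -1.43. Spesp1, an equatorial segment protein, had 30.6 and 21.0 CPM in Ctrl-F1 against 13.7 and 8.10 in KO-F1. The lysozyme-like gene Lyzl4 had 33.2 and 21.8 CPM in Ctrl-F1 against 8.04 and 7.68 in KO-F1, and Lyzl6 had 10.3 and 14.3 against 0 and 3.84, the 0 being in a library where 3 counts would be 0.893 normalized CPM. The groups were apart for these 3 genes as well (log2 fold changes -1.27, -1.84 and -2.69). Spaca7, whose product is released by the acrosome reaction, had 11.6 and 3.36 CPM in Ctrl-F1 against 3.27 and 7.25 in KO-F1, which overlap; without Ctrl-F1 replicate 1 its log2 fold change went from -0.57 to 0.64. Spaca3 had too few counts in F1 spermatozoa to be tested.

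Acrv1, which encodes the acrosomal vesicle protein SP-10, stood apart from the other contents and is described because of its values. It had 25.0 and 30.3 CPM in Ctrl-F1 against 23.2 and 34.5 in KO-F1, with a log2 fold change of 0.051 (SE 0.59, adjusted p = 0.979). Its level in KO-F2, 17.7 and 16.0, lay below that of all 4 F1 libraries. Relative to the sperm markers, its log2 fold change was 1.81 between KO-F1 and Ctrl-F1 (adjusted p = 0.0612), where the median of all genes was 1.76. Between KO-F2 and KO-F1 its log2 fold change was -2.64 (adjusted p = 0.00451), where the median of all genes was -1.89. Acrv1 was the 1 member called there under that scaling, which called 3975 of 13517 genes, 3936 of them lower.

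Of the 4 genes of acrosome formation, 3 fitted lower in KO-F1 under TMM (median -1.26) and 0 under sperm marker scaling (0.44), with TMM values from -1.54 to 1.61. Spaca1, a protein of the inner acrosomal membrane, had 26.3 and 8.40 CPM in Ctrl-F1 against 5.95 and 6.40 in KO-F1, a log2 fold change of -1.54 (SE 0.96, adjusted p = 0.430), positive under sperm marker scaling at 0.20. Without Ctrl-F1 replicate 1, the higher control, it was -0.44. Pick1 and Gopc encode PDZ proteins of vesicle traffic from the Golgi that many tissues use. Pick1 had 29.7 and 36.1 CPM in Ctrl-F1 against 9.23 and 21.8 in KO-F1, which lie apart (log2 fold change -1.10, SE 0.69, adjusted p = 0.431). Gopc, in contrast, had 9.91 and 3.36 CPM in Ctrl-F1 against 9.82 and 32.8 in KO-F1, which overlap, and its log2 fold change of 1.61 (SE 0.98, adjusted p = 0.421) was the highest of the members. Without KO-F1 replicate 2, the higher library, it was 0.52, and without Ctrl-F1 replicate 1 it was 2.66. Dpy19l2, a nuclear membrane protein that anchors the acrosome, had a log2 fold change of -1.42 (SE 1.76, adjusted p = 0.719) with a count of 0 in 1 KO-F1 library.

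The genes of cumulus and zona passage had the most negative median log2 fold change of the roles, -2.38 under TMM and -0.60 under sperm marker scaling, where Adam1a alone of the 8 tested changed sign, to 0.026. Each of the 8 had both KO-F1 libraries below both Ctrl-F1 libraries, with a fitted difference between the groups of at least 2-fold under TMM (all genes 19.5%). Prss21 (12 and 4 counts in KO-F1) and Zan (0 and 9) passed the low-count filter only through their Ctrl-F1 counts, which favours a lower KO-F1 value. Prss21 (chr17:23867883-23873121), which encodes testisin, a serine protease anchored to the sperm membrane, had the most negative log2 fold change of all members. It stood at 35.8 and 20.2 CPM in Ctrl-F1 against 3.57 and 1.71 in KO-F1, a log2 fold change of -3.40 (SE 0.88, adjusted p = 0.140). Spaca4, a membrane protein of the acrosome required for zona binding, stood at 62.9 and 40.3 CPM in Ctrl-F1 against 8.04 and 11.9 in KO-F1, a log2 fold change of -2.40 (SE 0.63, adjusted p = 0.140). Adam3, the ADAM protein on which passage into the oviduct depends, had 111 and 63.9 CPM in Ctrl-F1 against 20.8 and 30.3 in KO-F1 (log2 fold change -1.81, SE 0.53, adjusted p = 0.149). The groups did not overlap for any of these genes, though every adjusted p stayed above 0.1. The fertilin genes lay lower in both KO-F1 libraries too. Adam2 had 25.9 and 20.2 CPM in Ctrl-F1 against 2.98 and 5.54 in KO-F1 (log2 fold change -2.45), Adam1b had 27.2 and 36.1 against 5.95 and 4.69 (-2.57), and Adam1a had 41.0 and 20.2 against 6.85 and 11.9 (-1.74). Ly6k, a partner in the maturation of ADAM3, had 13.4 and 14.3 CPM in Ctrl-F1 against 5.66 and 0.853 in KO-F1, the KO-F1 libraries differing widely from each other (SE 1.20). Zan encodes zonadhesin and had 31 and 7 counts in Ctrl-F1 against 0 and 9 in KO-F1. Spam1, the hyaluronidase PH-20, was too low to test, with 15 and 0 counts in Ctrl-F1 against 4 and 0 in KO-F1.

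Of the 8 genes of fusion and the sperm surface, 5 were tested, and all 5 fitted lower in KO-F1 under TMM (median -1.06) but higher under sperm marker scaling (0.68). Izumo2 had 38.8 and 25.2 CPM in Ctrl-F1 against 10.7 and 10.7 in KO-F1, a log2 fold change of -1.61 (SE 0.67, adjusted p = 0.239). Izumo3 had 17.7 and 20.2 against 9.23 and 3.41, a log2 fold change of -1.59 (SE 0.91, adjusted p = 0.385). For both, the KO-F1 libraries lay under the Ctrl-F1 libraries. Izumo4, in contrast, had 39.7 and 22.7 in Ctrl-F1 against 21.7 and 22.2 in KO-F1, apart with a fitted difference under 2-fold (log2 fold change -0.54, SE 0.62, adjusted p = 0.690). Cd9, a tetraspanin that acts on the egg side of fusion and is widely expressed, had 51.7 and 45.4 in Ctrl-F1 against 33.3 and 61.8 in KO-F1, with a log2 fold change of -0.049 (SE 0.53, adjusted p = 0.977). Izumo1 had 35 and 2 counts in Ctrl-F1 against 11 and 12 in KO-F1, so the Ctrl-F1 libraries enclosed the KO-F1 libraries once normalized. Tmem95, Eqtn and Cd46 were not tested, with at most 9 counts in any F1 sperm library. Oocyte activation is represented by Plcz1, the sperm phospholipase C that starts calcium oscillations in the egg. It had 37.1 and 37.0 CPM in Ctrl-F1 against 16.4 and 8.53 in KO-F1, without overlap, and a log2 fold change of -1.59 (SE 0.65, adjusted p = 0.232) that turned to 0.12 under sperm marker scaling.

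The members that liver also expresses went both ways in KO-F1 spermatozoa under TMM. Pick1, Gopc, Izumo4 and Cd9, which had at least 10 counts in each liver library, ranged in log2 fold change from -1.10 (Pick1) to 1.61 (Gopc), with a median of -0.30, while the median of the other 23 members tested was -1.74. Summed over the 4 genes, the share of counts was 0.0125% and 0.00851% in Ctrl-F1 against 0.00896% and 0.0156% in KO-F1 spermatozoa, which overlap. For the remaining 28 it was 0.0941% and 0.0547% against 0.0330% and 0.0350%, which do not. The split was chosen after the values were seen, and the difference between the 2 groups of members was not tested.

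**Figure D3:**
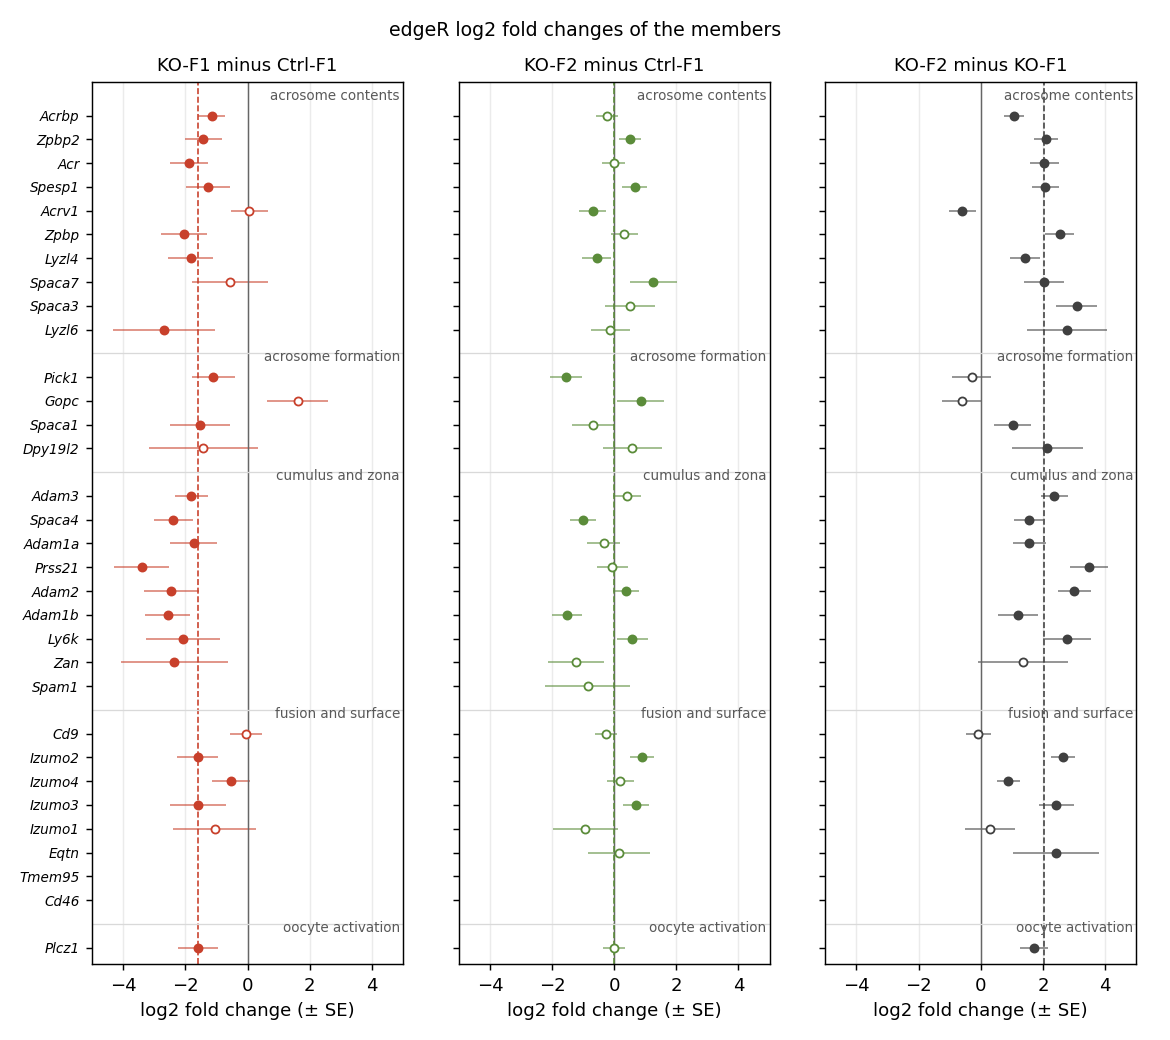
edgeR log2 fold change of each member in the 3 comparisons of spermatozoa after TMM normalization, with bars of 1 SE. Filled points mark members whose libraries do not overlap between the groups, open points those that overlap, dashed lines the medians (-1.59, -0.014 and 2.04). Under sperm marker scaling the medians are 0.12, -0.16 and -0.035, so the side on which the panels with KO-F1 lie depends on the scaling.

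In KO-F2 spermatozoa, levels of the members were spread around those of Ctrl-F1. Of 30 members tested, 14 fitted higher and 16 lower (all genes 53% and 47%). The median log2 difference was -0.014, where 13149 tested genes gave 0.070. It was 0.50 without Ctrl-F1 replicate 1 and 0.25 without KO-F2 replicate 2. No member was called by edgeR (all genes 0%; smallest adjusted p 0.237 among members and 0.0996 over all genes) or by DESeq2, which called 1.16% of genes higher and 0.993% lower. At an unadjusted p under 0.05, 3 members were lower and 0 higher (all genes 5.83% and 9.07%). The libraries did not overlap for 8 members that were higher and 5 that were lower (all genes 28.5% and 19.5%), and 4 of these, 3 lower and 1 higher, had a fitted difference of at least 2-fold (all genes 10.2% and 18%). With 1 library left out, edgeR called 103 and 277 genes (Ctrl-F1 replicates 1 and 2) or 75 and 35 (KO-F2 replicates 1 and 2), none of them a member. In KO-F2, 18 of 19 leukocyte markers were higher than in Ctrl-F1 (median 2.08), and 15 of 20 epididymal epithelium markers were lower (median -0.67, with 8 called lower by DESeq2). Their part was not tested. This comparison shares its Ctrl-F1 libraries with that of KO-F1.

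The 4 were Pick1, Adam1b and Spaca4, lower in KO-F2, and Spaca7, higher. Pick1 had 14.2 and 7.88 CPM in KO-F2 against 29.7 and 36.1 in Ctrl-F1, a log2 fold change of -1.55 (SE 0.51, adjusted p = 0.242). Adam1b had 13.1 and 8.60 CPM in KO-F2 against 27.2 and 36.1, a log2 fold change of -1.52 (SE 0.49, adjusted p = 0.237). For its neighbour Adam1a the KO-F2 values of 29.8 and 18.7 overlapped the Ctrl-F1 values of 41.0 and 20.2, with a log2 fold change of -0.34 (SE 0.53, adjusted p = 0.835). Whether the 2 copies differ from each other was not tested. Spaca4 had 27.3 and 24.0 CPM in KO-F2 against 62.9 and 40.3 (log2 fold change -1.01, SE 0.41, adjusted p = 0.327), and without Ctrl-F1 replicate 1 its log2 fold change was -0.58. Spaca7 had 23.0 and 14.4 CPM in KO-F2 against 11.6 and 3.36 (log2 fold change 1.26, SE 0.74, adjusted p = 0.499), and its log2 fold change was 2.55 without Ctrl-F1 replicate 1 and 0.73 without Ctrl-F1 replicate 2.

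Other members named above overlapped Ctrl-F1 in KO-F2 or lay on either side of it. Acr had 56.4 and 39.4 CPM, Acrbp 196 and 148 and Plcz1 35.0 and 37.8, each overlapping Ctrl-F1. Zpbp2 had 66.3 and 49.6 CPM, Spesp1 42.0 and 39.9, Izumo2 65.1 and 53.7 and Izumo3 32.8 and 28.4, each above both Ctrl-F1 libraries with a fitted difference under 2-fold. Adam3 had 148 and 83.6, Adam2 32.4 and 27.4, Prss21 33.0 and 20.7 and Ly6k 23.3 and 17.7 CPM. Of these, Adam2 and Ly6k lay above Ctrl-F1, and Adam3 and Prss21 overlapped it. Tmem95, required for fusion, had 0 counts in all 4 F1 sperm libraries and 22 and 12 counts in KO-F2 (1.94 and 1.45 CPM), where 3 counts would be 1.29 and 2.52 CPM in the Ctrl-F1 libraries and 0.893 and 1.28 in KO-F1. It did not pass the filter for the test against Ctrl-F1. Zpbp had 41.5 and 29.9 CPM, Lyzl6 8.65 and 13.6, Izumo4 36.8 and 35.0 and Cd9 34.1 and 46.3, all overlapping Ctrl-F1. Spaca1, at 10.8 and 11.5 CPM (log2 fold change -0.67, SE 0.69, adjusted p = 0.730), and Zan, at 6.09 and 2.18 (log2 fold change -1.22, SE 0.90, adjusted p = 0.601), overlapped it too, with negative fitted values. Gopc, at 11.3 and 13.5 CPM, lay above both Ctrl-F1 libraries, and Lyzl4, at 20.6 and 16.7, lay below them (log2 fold change -0.56, SE 0.47, adjusted p = 0.649).

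The direct comparison of the generations, KO-F2 with KO-F1 spermatozoa, had 25 of 29 members higher in KO-F2 under TMM (all genes 53.1% higher and 46.9% lower) but 13 under sperm marker scaling. The median log2 difference was 2.04, where 13517 tested genes gave 0.13, and sperm marker scaling took it to -0.035 while shifting all genes by -2.02. With a library left out, the members' median ran from 1.61 to 2.07. The share of Rn45s was 13.3% and 3.52% in KO-F2 against 15.7% and 28.6% in KO-F1, and its part in the members' values was not tested. The libraries lay apart for 23 members that were higher in KO-F2 and 1 that was lower, Acrv1 (all genes 33.9% and 32.4%). Of the 23, 22 had a fitted difference of at least 2-fold (all genes 29.1%, and 19.2% lower). The low-count filter favours higher KO-F2 values for members that passed it only through their KO-F2 counts. Examples are Eqtn (0 and 3 counts in KO-F1), Lyzl6 (0 and 9) and Spaca3 (10 and 3), all of which are among the 23. At an unadjusted p under 0.05, 18 members were higher and 0 lower (all genes 22.4% and 14.4%). edgeR called 312 genes (2.31% of those tested, 2.11% higher and 0.2% lower), among them 1 member, Izumo2. It rose from 10.7 and 10.7 CPM in KO-F1 to 65.1 and 53.7 in KO-F2, a log2 fold change of 2.65 (SE 0.38, adjusted p = 0.00970). The adjusted p lay just under the threshold. Izumo2 was not called without KO-F2 replicate 1 (2.49, adjusted p = 0.0321), without KO-F2 replicate 2 (2.86, adjusted p = 0.0113), with all 3 sperm groups in 1 model (2.47, adjusted p = 0.0147) or under sperm marker scaling (0.63, adjusted p = 0.214).

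DESeq2 called 10 members higher in KO-F2 (9.29% of all genes higher, 4.36% lower). They were Acr, Spaca3, Zpbp, Zpbp2 and Spesp1 of the acrosome contents, Prss21, Adam2 and Adam3 of the zona group, and Izumo2 and Izumo3. In edgeR, the adjusted p of these 10 ranged from 0.00970 to 0.0267. Prss21 had the largest log2 fold change, 3.49 (SE 0.61, adjusted p = 0.0130), followed by Spaca3, 3.09 (SE 0.67, adjusted p = 0.0231), and Adam2, 3.01 (SE 0.54, adjusted p = 0.0137). Spaca3 had 10 and 3 counts in the KO-F1 libraries and 186 and 137 in the deeper KO-F2 libraries, or 2.98 and 1.28 against 16.4 and 16.6 CPM. It passed the low-count filter only through its KO-F2 counts. The number of members edgeR called was 9 without KO-F1 replicate 1, 12 without KO-F1 replicate 2, 0 without KO-F2 replicate 1 and 1 without KO-F2 replicate 2, and it was 12, all higher, at an adjusted p under 0.05 (all genes 20.4%, with 14.2% higher). Over all genes those counts were 1551, 2898, 230 and 348 with the same libraries left out. Pick1, Gopc and Cd9, which liver also expresses, had log2 fold changes of -0.29, -0.61 and -0.074 and overlapped between the generations. Izumo4, the remaining member that liver expresses, lay higher in both KO-F2 libraries, at 36.8 and 35.0 CPM against 21.7 and 22.2 (log2 fold change 0.89, SE 0.36, adjusted p = 0.122). The leukocyte markers moved with this comparison as well, 19 of 19 being higher in KO-F2 with a median of 3.28, and 17 of 22 epididymal epithelium markers were lower with a median of -1.69. Their part in the members' values was not tested.

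Other genes of the same pathways, from lists that did not include the members, were counted in the same way. In KO-F1 against Ctrl-F1 spermatozoa, 17 of 21 further acrosome genes fitted lower under TMM (median -1.42), as did 15 of 19 genes of ADAM3 maturation and zona binding (-1.66), 4 of 4 further fusion genes (-1.82) and 8 of 8 genes of the perinuclear theca, the shell beneath the acrosome (-1.65). None was called by edgeR (all genes 0%), whereas DESeq2 called 6, 2, 1 and 0 genes of these 4 lists lower (all genes 5.22%). Under sperm marker scaling the medians of these 4 lists were 0.31, 0.11, -0.11 and 0.11. By contrast, 6 of 8 genes of acrosomal exocytosis, the SNARE machinery that other cells share, were higher in KO-F1 under TMM (median 0.62). Under sperm marker scaling 8 of 8 were higher (median 2.34), but that scaling raised the median of all genes to 1.76. Vamp2, a vesicle SNARE, had 25.0 and 73.1 CPM in Ctrl-F1, then 119 and 114 in KO-F1 and 21.2 and 22.2 in KO-F2. Its log2 fold change was 1.26 in KO-F1 against Ctrl-F1 (adjusted p = 0.260) and it fell between KO-F1 and KO-F2 (-2.25, adjusted p = 0.00962).

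In these lists the genes with the highest mean CPM in spermatozoa, not corrected for length, were Ccdc136 and Crisp2 (acrosome) and Sppl2c and Cmtm2a (ADAM3 maturation and zona). For the other lists they were 1700034O15Rik, the gene now named Llcfc1, and Dcst1 (fusion), Actrt2 and Actl7b (perinuclear theca), and Napa and Vamp2 (exocytosis). Ccdc136 had 2137 and 2882 CPM in Ctrl-F1, only 754 and 976 in KO-F1 and 1988 and 2959.8 in KO-F2. Crisp2 had 1029 and 1382 CPM in Ctrl-F1, only 499 and 331 in KO-F1 and 939.9 and 921 in KO-F2. KO-F1 libraries were below those of both other groups for both genes. Between KO-F2 and KO-F1, edgeR called 4 genes of the lists higher and 1 lower (all genes 2.11% and 0.2%). Those higher were Dkkl1 and 1700026L06Rik (now Spaca9) of the acrosome list, Lypd4 of the zona list and Actrt2, with log2 fold changes from 2.31 to 2.91, and the lower was Vamp2. DESeq2 called 10 genes of the acrosome list, 7 of the zona list, 1 of the fusion list and 2 of the perinuclear theca list higher (all genes 9.29%). It called 1 of the exocytosis list lower (all genes 4.36%).

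**Figure D4:**
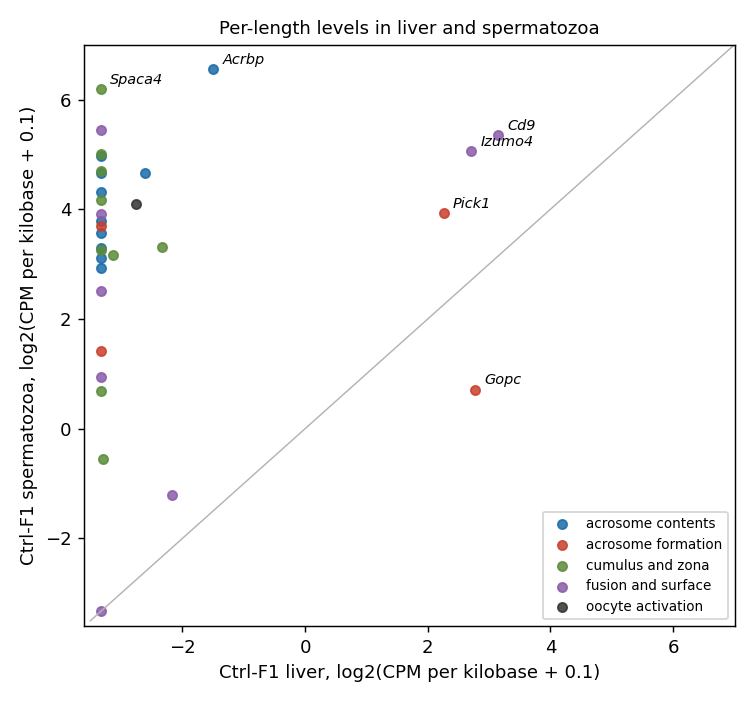
Level of each member in Ctrl-F1 liver (x axis) and Ctrl-F1 spermatozoa (y axis) as log2 of mean normalized CPM per kilobase plus 0.1, each point a gene coloured by role and the line marking equal levels. Cd9, Izumo4, Pick1 and Gopc stand at 8.76, 6.43, 4.70 and 6.76 CPM per kilobase in liver, the others at or near 0, and Gopc alone of the 4 lies below the line.

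Liver holds no spermatozoa, and 28 of the members had at most 10 counts in any liver library, the largest value being that of Acrbp (6 and 10 counts in Ctrl-F1, 9 and 9 in KO-F1). Per length, Gopc was higher in Ctrl-F1 liver (6.76 CPM per kilobase) than in Ctrl-F1 spermatozoa (1.54), and Cd9 was higher in spermatozoa (40.6) than in liver (8.76). The tissues were prepared with different kits, so these levels are set side by side without a test. Of 11505 genes tested in liver, edgeR called 0% between KO-F1 and Ctrl-F1, and 459 were higher and 624 lower at an unadjusted p under 0.05 (3.99% and 5.42%). None of the 4 members tested was among these, though 3 fitted higher and 1 lower (all genes 49.4% and 50.6%). DESeq2 called none of them, while it called 20 genes in all (0.0949% higher and 0.176% lower). With 1 library left out, edgeR called 107 and 51 genes (Ctrl-F1 replicates 1 and 2) or 9 and 4 (KO-F1), none of them a member. Pick1 had 167 and 129 counts in control liver against 124 and 138, a log2 difference of 0.16 (SE 0.25, adjusted p = 0.879). Gopc had 412 and 433 against 325 and 272 counts (log2 fold change -0.18, SE 0.15, adjusted p = 0.742). Izumo4 had 95 and 79 against 89 and 70 (log2 fold change 0.19, SE 0.28, adjusted p = 0.869), and Cd9 had 111 and 195 against 159 and 181 (log2 fold change 0.50, SE 0.28, adjusted p = 0.602). The groups overlapped for Pick1, Izumo4 and Cd9, and the KO-F1 libraries lay below for Gopc (all genes 21.4% below and 20.1% above).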

How the data were processed

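For 10 libraries, the authors deposited raw counts of reads by gene symbol. Before that, 75-bp single-end reads had been mapped by HISAT2 2.1.0 on GRCm38/mm10, and featureCounts took those that aligned uniquely. Liver libraries were made with a stranded mRNA kit, sperm libraries from amplified cDNA. Symbols listed more than once (2 symbols, 4 lines) were left out, which kept 23416 of 23420 lines.

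Groups were compared in pairs with edgeR 4.0.16 in R 4.3.3: filterByExpr (minimum count 10, minimum total count 15), TMM normalization, the quasi-likelihood F test and Benjamini-Hochberg adjustment over all genes tested. Calls used the study's thresholds, a 2-fold difference or more with adjusted p below 0.01. CPM are TMM-normalized within a tissue. DESeq2 1.42.0 and the other settings of the closing section were alternatives. Scripts were tested on simulated counts. The members and lists were chosen with earlier results of these data known, so lists carry no test. Values per library are given for the 3 members with the highest mean CPM in each role and for those whose libraries lay apart with a fitted difference of at least 2-fold in either comparison with Ctrl-F1. Acrv1, Spaca3, Dpy19l2, Spam1, Izumo1 and Tmem95 are outside this rule and were chosen with their values in view. The labels give biological replicates; p-values measure the spread between 2 samples per group. The 2 replicates of each group differed by more than sampling noise. The ChIP-seq and embryo samples were not analysed here.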

Additional observations from a re-analysis of the deposited data

Results flagged for a closer look

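Izumo2 differed between the generations sired from Scml2-KO males. Its edgeR log2 fold change between KO-F2 and KO-F1 spermatozoa, fitted on these 2 groups without Ctrl-F1, was 2.65 (SE 0.38, adjusted p = 0.00970). Both KO-F2 libraries (65.1 and 53.7 CPM) lay above both KO-F1 libraries (10.7 and 10.7 CPM). With all 3 sperm groups in 1 model it was 2.47 (adjusted p = 0.0147), which was not called. With a library left out it ran from 2.49 to 2.86. Against Ctrl-F1 (38.8 and 25.2 CPM) it was -1.61 in KO-F1 and 0.89 in KO-F2. Relative to the sperm markers the difference between generations was 0.63 (adjusted p = 0.214). The share of sperm markers, the run named in the labels, the strain and the conception by ICSI differ between these groups too, and their part was not tested.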

How the results depend on the processing

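No member was called in the comparisons of KO-F1 or KO-F2 with Ctrl-F1 spermatozoa, or in liver, under any setting run. Over all genes, the count called in KO-F1 against Ctrl-F1 spermatozoa (0) was 390 with DESeq2, 113 without a filter, 200 with at least 10 counts in every library and 502, all higher, with scaling to the sperm markers. In KO-F2 against Ctrl-F1 (0) it was 277 with DESeq2, 39 without a filter, 1 with at least 10 counts, 2 with all 3 sperm groups in 1 model and 35 to 277 with a library left out. In liver (0) it was 20 with DESeq2, 25 without a filter, 1 with at least 10 counts, 1 at an adjusted p under 0.05 and 4 to 107 with a library left out. In KO-F2 against KO-F1 (312) it was 2059 with DESeq2, 2552 without a filter, 1805 with at least 10 counts, 198 in 1 model, 3975 (39 higher, 3936 lower) with sperm marker scaling, 1131 after thinning counts to the smallest sperm library, 2759 at an adjusted p under 0.05 and 230 to 2898 with a library left out. The members called there (1) were 10, 12, 9, 0, 1 (Acrv1, lower), 5, 12 and 0 to 12 under the same settings. The cause of these differences was not tested.

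The members' median log2 fold change kept its sign in KO-F1 against Ctrl-F1 under every setting but sperm marker scaling (0.12) and ran from -1.94 to -1.27 with a library left out. In KO-F2 against Ctrl-F1, where it was -0.014, it ran from -0.15 to 0.50 with a library left out. In KO-F2 against KO-F1 it was 1.75 with at least 10 counts, 1.69 in 1 model, -0.035 with sperm marker scaling and 1.61 to 2.07 with a library left out, and in liver it ran from -0.0089 to 0.33 with a library left out. Medians restricted to members without liver counts or with a mean of at least 50 counts, settings chosen after seeing the data, moved by less than the spread between replicates.

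With sperm marker scaling, log2 fold changes of named members changed sign in KO-F1 against Ctrl-F1 to Acrbp 0.59, Spaca7 1.19, Zpbp2 0.33, Spesp1 0.44, Spaca1 0.20, Pick1 0.68, Adam1a 0.026, Izumo2 0.13, Izumo3 0.10, Izumo4 1.20, Cd9 1.72 and Plcz1 0.12, and in KO-F2 against KO-F1 to Acr -0.016, Acrbp -0.97, Spaca7 -0.035, Lyzl4 -0.60, Spaca1 -1.0, Adam1a -0.50, Adam1b -0.81, Spaca4 -0.50, Zan -0.75, Izumo4 -1.14 and Plcz1 -0.28. With at least 10 counts in every library, log2 fold changes of named members changed sign in KO-F1 against Ctrl-F1 to Cd9 0.035, and in KO-F2 against Ctrl-F1 to Acr 0.087, Prss21 0.030 and Plcz1 0.094, and in KO-F2 against KO-F1 to Cd9 0.13. After thinning, log2 fold changes of named members changed sign in KO-F2 against Ctrl-F1 to Zpbp -0.031, Prss21 0.092 and Plcz1 0.082. Without a filter, log2 fold changes of named members changed sign in KO-F2 against Ctrl-F1 to Acr 0.038 and Plcz1 0.041. With a library left out, the sign of Spaca7 (-1.22 to 0.64) and Cd9 (-0.56 to 0.34) changed in KO-F1 against Ctrl-F1. With a library left out, the sign of Acr (-0.28 to 0.25), Acrbp (-0.49 to 0.21), Spaca1 (-1.20 to 0.47), Prss21 (-0.41 to 0.49), Adam1a (-0.71 to 0.34), Plcz1 (-0.034 to 0.067), Lyzl6 (-0.45 to 0.18), Izumo4 (-0.10 to 0.73) and Adam3 (-0.035 to 0.93) changed in KO-F2 against Ctrl-F1. With a library left out, the sign of Pick1 (-0.85 to 0.42), Gopc (-1.29 to 0.48) and Cd9 (-0.51 to 0.42) changed in KO-F2 against KO-F1. With a library left out, the sign of Pick1 (-0.049 to 0.40) changed in liver. None of these values was called in either setting.

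Per the labels, same-numbered samples share only a number. The correlation of their deviations from the group means was -0.0093 (KO-F1 and Ctrl-F1 spermatozoa), 0.153, 0.06 and, in liver, -0.162. With the replicate number as a block, edgeR called 0, 362, 819 and 2 genes in KO-F1 against Ctrl-F1 spermatozoa, KO-F2 against Ctrl-F1, KO-F2 against KO-F1 and liver, and the members called between KO-F2 and KO-F1 were 2, with Prss21 added (3.55). A crossed block in liver, chosen after seeing the data, called 0 genes. Depth limits what can be read from the F1 libraries: 5 members had too few counts to be tested, and a member with 3 counts or fewer in a library is not distinguished from 0.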
